A study of Mus musculus with 4 samples.

Results

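The genes described here make cholesterol or control its level in the cell. They were 32 genes chosen by name, and 29 of them were measured, of 19938 genes measured in all. A gene was measured if the array held a probe set that the platform annotation gives to that gene alone. Acat2, Nr1h2 and Soat1 had no such probe set, so they have no expression values here and enter only the promoter counts. Of the 29 genes, 27 had 1 probe set and 2 (Idi1 and Fdft1) had 2, which were averaged. The genes cover 17 enzymes of synthesis, 5 genes of SREBP regulation, 4 genes of sterol uptake and transport, and 3 genes of the LXR receptor and sterol efflux. Those of SREBP regulation are Srebf1 and Srebf2, which encode the SREBP transcription factors, and Scap, Insig1 and Insig2, which control them.

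The study measured total RNA from mouse cells on 1 array per sample. Lines 178B5 and 492B4, on a mixed background of DBA/2, C57BL/6 and 129S4, are induced pluripotent stem (iPS) cells, that is, somatic cells returned to an embryo-like state. Line v6.5, an F1 of 129 and C57BL/6, consists of embryonic stem (ES) cells, which come from an early embryo. They were set against fibroblasts from mouse embryos (MEF), which share the mixed background of the iPS lines. The 3 pluripotent lines grew on SNL feeder cells that carry a puromycin-resistance gene and had been treated with mitomycin-C, in ES cell medium with more serum than the MEF medium, with non-essential amino acids and with 2-mercaptoethanol. The fibroblast medium is listed without these additions and with no feeders. Cell type, medium and feeders therefore cannot be told apart in any comparison with MEF. Strain is a further difference wherever ES is set against MEF, alone or among the 3 lines. Nor can iPS origin and strain be told apart in the comparison with ES. Each line stands for itself, with no repeat culture, so p-values measure only the spread between these samples.

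Cholesterol is built from acetyl-CoA through mevalonate, isoprenoid diphosphates, squalene and lanosterol, and the later enzymes trim lanosterol to cholesterol. When sterol in the endoplasmic reticulum is low, SCAP carries the SREBP proteins to the Golgi, where they are cut, and the released part switches on the enzymes of this route. When sterol is plentiful, the INSIG proteins hold SCAP back, and oxysterols activate the LXR receptors, which switch on the pumps that move cholesterol out of the cell. Growing cells need cholesterol for new membrane, and either make it or take it up from lipoproteins.

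Each value below is a log2 signal relative to the median of the 4 arrays for that gene, and 1 log2 is a 2-fold difference. The values compare arrays for the same gene and do not give a level, so they cannot be set against background or against another gene. In bulk RNA, fewer cells of a type and less RNA per cell cannot be told apart. The arrays matched their labels: all 8 pluripotency markers were higher on the 3 lines (median 6.16 log2), and all 8 fibroblast markers lay below MEF (median -4.29 log2, range -6.17 to -3.07 log2), 6 of them called by the limma test described with the results.

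The promoters of 4 enzymes are shown because they carry the start sites of the enzymes whose values the results turn on, and because the Hmgcs1 window holds a match to the SREBP motif TCACNCCAC. The last 3 of them were chosen after their values were seen. The sequences are from RefSeq (GRCm38.p6), run 5′ to 3′ on the strand of the gene, and span 250 bases before to 50 bases after the annotated start. Capitals mark TCACNCCAC, the NF-Y box CCAAT and the GC box GGGCGG, each on either strand, and no matches overlap in these windows. They lie at chr13:119690101-119690400 (plus strand) for Hmgcs1, chr10:76531355-76531654 (plus) for Lss, chr7:143822917-143823216 (plus, the first of 3 listed starts) for Dhcr7 and chr1:169969156-169969455 (minus) for Hsd17b7.
Hmgcs1: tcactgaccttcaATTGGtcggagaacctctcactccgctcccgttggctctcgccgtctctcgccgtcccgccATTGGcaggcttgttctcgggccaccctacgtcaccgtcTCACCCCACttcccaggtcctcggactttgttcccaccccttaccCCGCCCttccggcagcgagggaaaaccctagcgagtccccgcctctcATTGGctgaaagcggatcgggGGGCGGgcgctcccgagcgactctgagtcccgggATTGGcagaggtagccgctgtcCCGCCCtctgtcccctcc
Lss: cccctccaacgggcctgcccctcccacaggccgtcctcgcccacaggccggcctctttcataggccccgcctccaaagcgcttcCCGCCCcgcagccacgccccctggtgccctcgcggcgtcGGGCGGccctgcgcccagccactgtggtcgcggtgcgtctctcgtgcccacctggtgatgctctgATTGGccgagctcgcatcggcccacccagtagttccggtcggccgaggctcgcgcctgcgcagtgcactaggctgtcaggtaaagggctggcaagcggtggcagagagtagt
Dhcr7: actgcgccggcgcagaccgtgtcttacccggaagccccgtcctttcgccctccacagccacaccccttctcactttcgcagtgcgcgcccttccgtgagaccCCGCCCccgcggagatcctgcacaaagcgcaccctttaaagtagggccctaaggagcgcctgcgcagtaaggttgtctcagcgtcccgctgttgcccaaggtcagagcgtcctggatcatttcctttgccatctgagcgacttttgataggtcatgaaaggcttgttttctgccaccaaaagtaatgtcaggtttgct
Hsd17b7: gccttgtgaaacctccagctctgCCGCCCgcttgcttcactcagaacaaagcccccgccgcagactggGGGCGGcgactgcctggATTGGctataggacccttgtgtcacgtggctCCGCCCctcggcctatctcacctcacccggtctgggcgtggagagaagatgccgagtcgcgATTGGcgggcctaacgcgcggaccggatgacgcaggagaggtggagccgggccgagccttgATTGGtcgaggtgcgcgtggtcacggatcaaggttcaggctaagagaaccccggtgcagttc

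RefSeq windows were found for 25 of the 32 genes, 15 of them enzymes of synthesis. The 25 include Acat2 (1 of the 15 enzymes), Nr1h2 and Soat1, none of which has an expression value here. TCACNCCAC stood in the window of 1 of these 15 enzymes, Hmgcs1, at bases -137 to -129 from the start, and in 1.44% of all 27025 genes with a window. CCAAT stood in at least 1 window of 14 of the 15 enzymes, against 41.1% of all genes, and GGGCGG in 14 of 15, against 38.2%. The Hmgcs1 window held 4 CCAAT matches, the Hsd17b7 window 3 and the Lss window 1. The Dhcr7 window shown held none. The shares over all genes include non-coding genes, and a match is a run of letters, not a binding site.

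**Figure D1:**
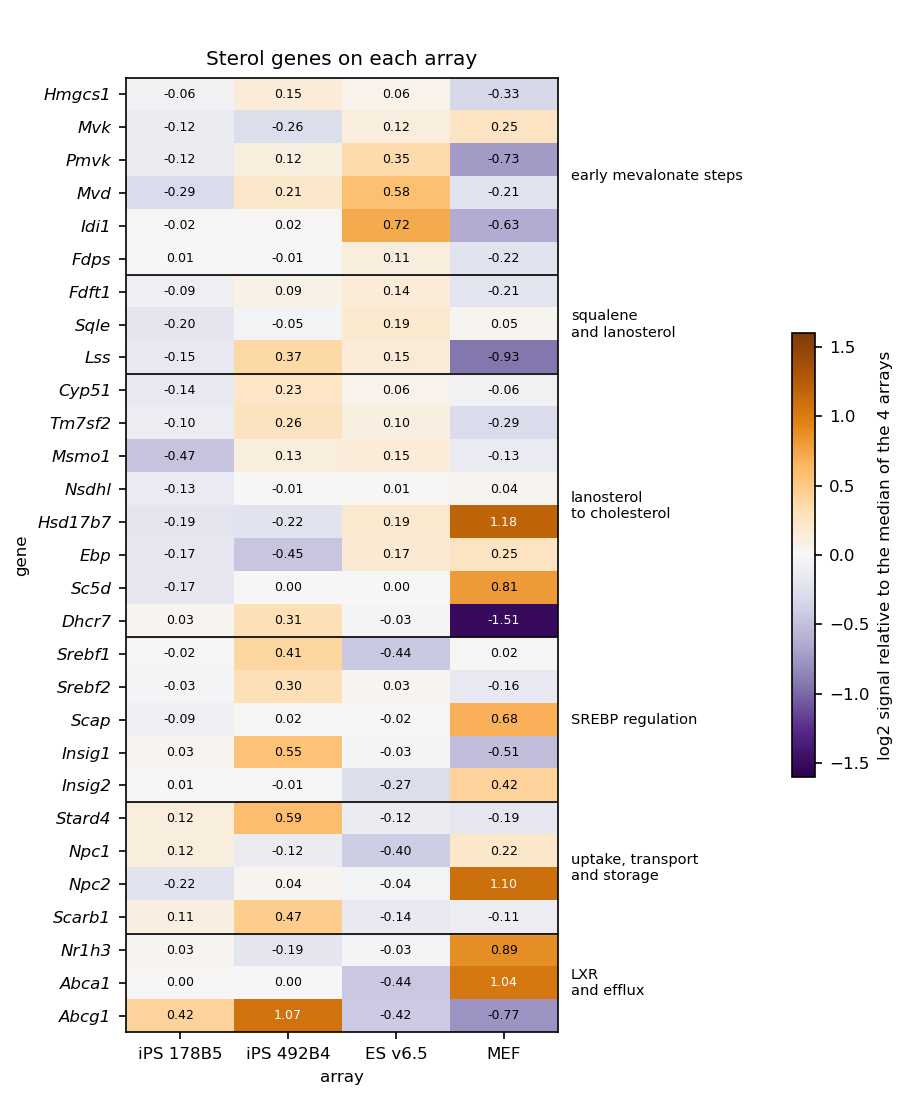
Log2 signal of the 29 measured sterol genes (rows, grouped by role) on the iPS 178B5, iPS 492B4, ES v6.5 and MEF arrays (columns), relative to the median of the 4 arrays for each gene. The MEF column holds the strongest colours, from -1.51 for Dhcr7 to 1.18 for Hsd17b7, in both directions within the same route.

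The first comparison set the 3 pluripotent lines against MEF. The 5 genes called by the rule below went both ways. Of the enzymes of synthesis, Dhcr7, the last one, and Lss, which closes the sterol rings, rose, and the late enzyme Hsd17b7 fell. Outside the route of synthesis, the lysosomal cholesterol carrier Npc2 and the efflux pump Abca1 fell. A gene was called at a limma adjusted p under 0.05, over all 19938 genes, and a difference of at least 1 log2. By this rule 5 of 29 genes (17.2%) were called, 2 higher and 3 lower, beside 17.6% of all genes (7.9% higher and 9.71% lower), so the share called was close to that of all genes. The spread of each gene came from the 3 lines alone (2 residual degrees of freedom), and the eBayes step of limma drew it towards a value shared by all genes. The single MEF array was taken to be as variable as the lines. With no fold minimum 8 of 29 genes passed (23.8% of all genes), and at an unadjusted p under 0.05 10 did (37.8% of all genes). Without iPS 178B5, 0 of the 29 genes were called (1357 of all 19938 genes), and without iPS 492B4 2 were (3188 of all genes, against 3512 with every line). The median difference was 0.11 log2 over the 29 genes, with 16 above 0 (55.2%, beside 39.8% of all genes), and -0.10 log2 over all genes. Centring each array on 9 reference genes moved the difference of every gene, and so the median of all genes, by the same -0.39 log2. It put 6 of the 29 genes above 0, beside 22.4% of all genes, and gave 1 higher and 6 lower calls, beside 5.32% and 17.8% of all genes. Sc5d, Scap and Nr1h3, described below, passed the fold minimum only with this common shift. The lower number above 0 arose as Hmgcs1, Mvd, Fdps, Fdft1, Cyp51, Tm7sf2, Msmo1, Srebf2, Stard4 and Scarb1 turned below 0. With equal array medians Sqle and Srebf1 turned above 0.

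Of the 6 measured enzymes of the early steps, which lead from acetyl-CoA to farnesyl diphosphate, 0 were called by limma in this comparison, beside 17.6% of all genes. Robust moderation also called 0. At an unadjusted p under 0.05 there was 1, beside 37.8% of all genes. On average 5 lay above MEF (39.8% of all genes), and 2 with reference gene centring (22.4% of all genes). Hmgcs1, which makes HMG-CoA, stood at -0.06 on iPS 178B5, 0.15 on iPS 492B4 and 0.06 on ES, against -0.33 on MEF. All 3 lines were above MEF, by 0.38 ± 0.10 log2 (SD, n = 3 lines), which was not called (adjusted p = 0.155 by limma) and was -0.0050 log2 with reference gene centring.
Pmvk, the second kinase of the route, stood at -0.12 on iPS 178B5, 0.12 on iPS 492B4 and 0.35 on ES, against -0.73 on MEF. The lines were above MEF by 0.85 ± 0.23 log2 (SD, n = 3), short of both thresholds (limma adjusted p = 0.0617). Idi1, which interconverts the isoprenoid units, stood at -0.02 on iPS 178B5, 0.02 on iPS 492B4 and 0.72 on ES, against -0.63 on MEF. Its ES value lay apart from both iPS values, and the mean difference of 0.87 ± 0.42 log2 (SD, n = 3) was not called (adjusted p = 0.154 by limma). The 2 probe sets of Idi1 gave closely similar values, 0.75 and 0.70 on ES and -0.63 and -0.64 on MEF. Mvd, the decarboxylase, differed from MEF by -0.08, 0.43 and 0.80 log2 on iPS 178B5, iPS 492B4 and ES, so the lines lay on both sides of MEF. Fdps, which makes farnesyl diphosphate, was 0.22 to 0.34 log2 above MEF on the lines, but below it on average with reference gene centring (-0.13 log2). Mvk, the first kinase, was the exception, with line differences from -0.51 to -0.13 log2.

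Among the enzymes that make squalene and lanosterol, Lss rose. It stood at -0.15 on iPS 178B5, 0.37 on iPS 492B4 and 0.15 on ES, against -0.93 on MEF. All 3 lines lay above MEF by at least 0.78 log2, and the mean difference was 1.05 ± 0.26 log2 (SD, n = 3; 95% interval 0.40 to 1.70; limma adjusted p = 0.0444). This call was lost without iPS 178B5 (adjusted p = 0.0705), without iPS 492B4 (0.0699), without ES (0.0510) and with reference gene centring (0.66 log2, adjusted p = 0.0812). Fdft1, the squalene synthase, was 0.12 to 0.35 log2 above MEF on the lines, and at -0.14 log2 on average with reference gene centring. Sqle, the epoxidase that is a control point of the route, differed from MEF by -0.25, -0.09 and 0.14 log2 on iPS 178B5, iPS 492B4 and ES. With the values as deposited, the 95% interval of its mean difference ran from -0.61 to 0.48 log2. A change of 1 log2 either way lay outside that interval, which takes the single MEF array to vary as the lines do. With reference gene centring the mean difference was -0.45 log2.

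The 8 enzymes from lanosterol to cholesterol held 1 rise and 1 fall. Dhcr7, which turns the last precursor of one branch into cholesterol, stood at 0.03 on iPS 178B5, 0.31 on iPS 492B4 and -0.03 on ES, against -1.51 on MEF. The lines lay close together and far above MEF, by 1.61 ± 0.18 log2 (SD, n = 3; 95% interval 1.09 to 2.14; limma adjusted p = 0.0111). Without iPS 178B5 the difference was 1.65 log2 and the adjusted p 0.0528.
Hsd17b7, the ketosterol reductase that takes part in removing methyl groups from the sterol ring, stood at -0.19 on iPS 178B5, -0.22 on iPS 492B4 and 0.19 on ES, against 1.18 on MEF. It fell on all 3 lines, with a mean difference of -1.25 ± 0.23 log2 (SD, n = 3; limma adjusted p = 0.0241), and lost its call when iPS 178B5 (adjusted p = 0.0929) or iPS 492B4 (0.0558) was left out. Sc5d, the sterol desaturase that acts just before Dhcr7, stood at -0.17 on iPS 178B5, 0.00 on iPS 492B4 and 0.00 on ES, against 0.81 on MEF. Its difference of -0.86 ± 0.10 log2 (SD, n = 3; limma adjusted p = 0.0236) passed the p threshold but not the fold minimum. It missed the p threshold without iPS 178B5 (adjusted p = 0.114) and without iPS 492B4 (0.0544), and was called with reference gene centring (-1.25 log2, adjusted p = 0.00650). The neighbouring enzymes Sc5d and Dhcr7 thus differed from MEF in opposite directions on every line.
The remaining 5 enzymes of this stretch (Cyp51, Tm7sf2, Msmo1, Nsdhl and Ebp) had mean differences between -0.40 log2 (Ebp, the sterol isomerase) and 0.38 log2 (Tm7sf2, a sterol reductase, at -0.0098 log2 with reference gene centring). Msmo1, the methylsterol oxidase, stood at -0.47 on iPS 178B5, 0.13 on iPS 492B4 and 0.15 on ES, against -0.13 on MEF, so that MEF lay between the lines.

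Of the 5 genes of SREBP regulation 0 were called by limma, beside 17.6% of all genes, and robust moderation also called 0. At an unadjusted p under 0.05 there were 2, beside 37.8% of all genes. With so few genes these counts do not set the group apart from all genes. Scap, the escort of the SREBP proteins, came closest: it stood at -0.09 on iPS 178B5, 0.02 on iPS 492B4 and -0.02 on ES, against 0.68 on MEF. All 3 lines were below MEF by a similar amount, -0.71 ± 0.05 log2 (SD, n = 3; limma adjusted p = 0.0294), under the fold minimum, and with reference gene centring the gene was called (-1.10 log2, adjusted p = 0.00886). It missed the p threshold when iPS 178B5 (adjusted p = 0.155) or iPS 492B4 (0.0677) was left out.
The INSIG genes lay on opposite sides of MEF. Insig1, itself a target of SREBP and so often read as a gauge of its activity, stood at 0.03 on iPS 178B5, 0.55 on iPS 492B4 and -0.03 on ES, against -0.51 on MEF. Its mean difference was 0.69 ± 0.32 log2 (SD, n = 3; limma adjusted p = 0.16), with the high value on iPS 492B4. Insig2, which is not induced by SREBP in the same way, stood at 0.01 on iPS 178B5, -0.01 on iPS 492B4 and -0.27 on ES, against 0.42 on MEF, a difference of -0.51 ± 0.16 log2 (SD, n = 3; limma adjusted p = 0.12).
Srebf2, whose protein drives the sterol enzymes, stood at -0.03 on iPS 178B5, 0.30 on iPS 492B4 and 0.03 on ES, against -0.16 on MEF (difference 0.26 ± 0.18 log2, SD, n = 3). The sign of that difference turned with reference gene centring (-0.13 log2). Srebf1, whose protein acts more on fatty acid synthesis, stood at -0.02 on iPS 178B5, 0.41 on iPS 492B4 and -0.44 on ES, against 0.02 on MEF. The lines lay on both sides of MEF, and the mean of -0.040 log2 turned to 0.034 log2 with equal array medians.

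**Figure D2:**
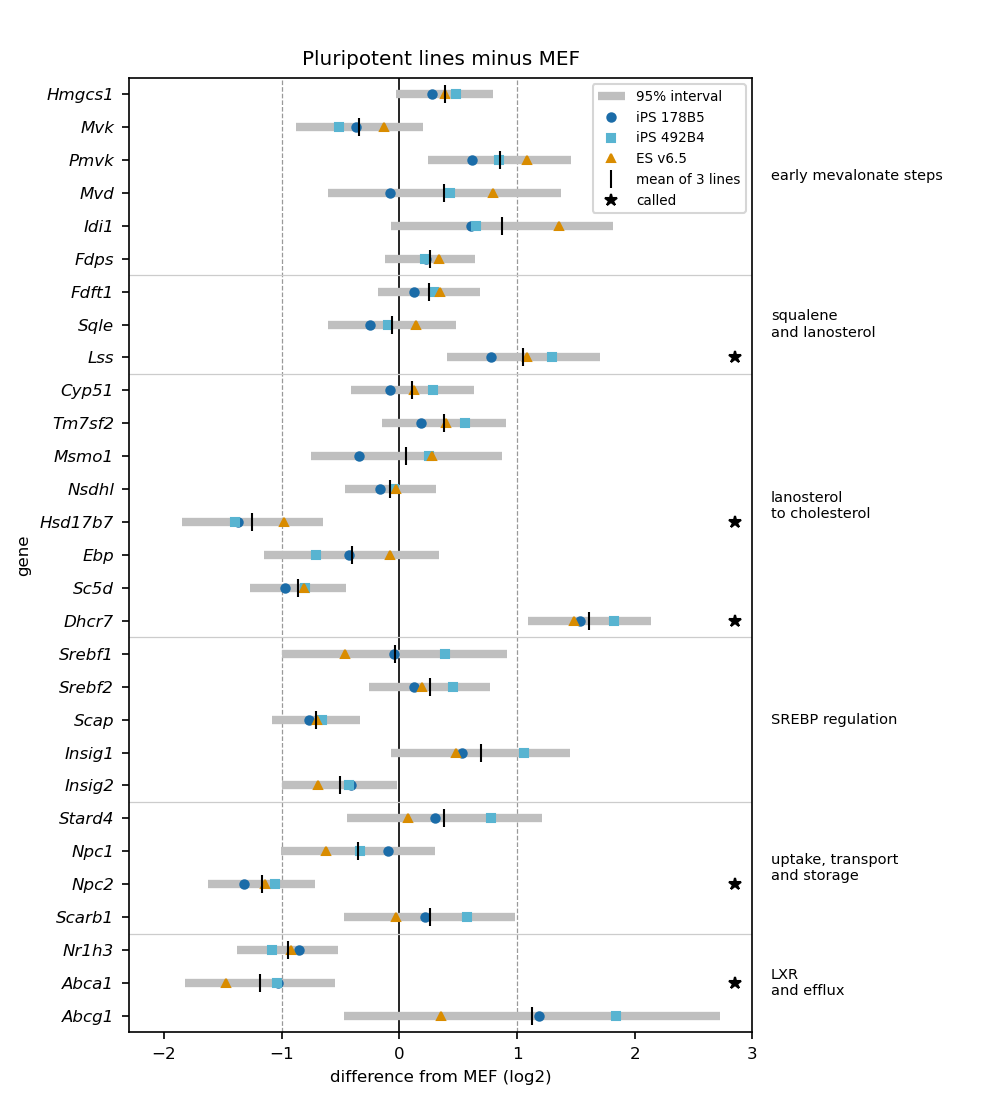
Difference from MEF (log2) of each pluripotent line for the 29 genes: circles for iPS 178B5, squares for iPS 492B4, triangles for ES v6.5, a tick for the mean of the 3 lines and a grey bar for its 95% interval from limma. Stars mark the 5 called genes, with Dhcr7 farthest to the right at 1.61 log2 and Hsd17b7 farthest to the left at -1.25 log2, and dashed lines mark 1 log2.

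Of the 4 genes of uptake and transport, Npc2 fell. NPC2 binds cholesterol in the lysosome and hands it to NPC1 in the membrane. Npc2 stood at -0.22 on iPS 178B5, 0.04 on iPS 492B4 and -0.04 on ES, against 1.10 on MEF, and all 3 lines lay more than 1 log2 below MEF. The difference was -1.17 ± 0.13 log2 (SD, n = 3; limma adjusted p = 0.0153), and the adjusted p was 0.0717 without iPS 178B5. Its partner Npc1 was below MEF by a smaller amount, -0.10, -0.34 and -0.62 log2 on iPS 178B5, iPS 492B4 and ES (limma adjusted p = 0.365). Stard4, a soluble sterol carrier that SREBP induces, and Scarb1, the HDL receptor, had mean differences of 0.38 and 0.26 log2, which turned to -0.0053 and -0.13 log2 with reference gene centring, and were not called.

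In the LXR and efflux group the 2 pumps lay on opposite sides of MEF. Abca1, which loads cholesterol onto apolipoproteins, stood at 0.00 on iPS 178B5, 0.00 on iPS 492B4 and -0.44 on ES, against 1.04 on MEF. It fell by 1.18 log2 on average (SD 0.25, n = 3; limma adjusted p = 0.0315), and its call was lost on leaving out iPS 178B5 (adjusted p = 0.0890) or iPS 492B4 (0.0569). Abcg1, which moves cholesterol to HDL, stood at 0.42 on iPS 178B5, 1.07 on iPS 492B4 and -0.42 on ES, against -0.77 on MEF. The iPS lines lay more than 1 log2 above MEF and the ES line 0.36 log2 above it, so the mean of 1.13 ± 0.75 log2 (SD, n = 3) was not called (limma adjusted p = 0.25). Without ES the mean was 1.52 log2. That fit is the same test as iPS minus MEF below, in which Abcg1 was called, so the 2 are a single result.
Nr1h3, the LXR alpha receptor that senses oxysterols and induces both pumps, stood at 0.03 on iPS 178B5, -0.19 on iPS 492B4 and -0.03 on ES, against 0.89 on MEF. Its difference of -0.95 ± 0.12 log2 (SD, n = 3; limma adjusted p = 0.021) was just under the fold minimum, and with reference gene centring it was called (-1.34 log2, adjusted p = 0.00584). On leaving out iPS 178B5 it missed the p threshold (adjusted p = 0.0871). Abca1 and Nr1h3 can be high in macrophages, so macrophage markers were read beside them: 5 of 7 lay below MEF on average (median -0.31 log2), Cd68 (2.34 log2, not called) and Laptm5 (3.11 log2, called) lay above it, and their part in the result was not tested.

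iPS and ES were then each set against MEF in a fit with 3 groups. The spread of each gene there came from the 2 iPS arrays (1 residual degree of freedom), and eBayes drew it towards a value shared by all genes. The ES and MEF arrays were taken to vary as the iPS arrays do. Both comparisons use the same MEF array, and iPS minus MEF is the same test as the first comparison with ES left out. For iPS minus MEF 5 of 29 genes were called (21.1% of all genes, 9.94% higher and 11.2% lower): Dhcr7 at 1.68 log2 and Abcg1 at 1.52 log2 rose, and Hsd17b7 at -1.38 log2, Npc2 at -1.19 log2 and Abca1 at -1.04 log2 fell. With equal array medians Abca1 was at -0.95 log2 and not called. For ES minus MEF 5 of 29 were called (20.0% of all genes, 9.14% higher and 10.9% lower): Dhcr7 at 1.48 log2, Idi1 at 1.36 log2 and Pmvk at 1.09 log2 rose, and Abca1 at -1.48 log2 and Npc2 at -1.14 log2 fell. With reference gene centring Pmvk stood at 0.77 log2 and was not called. With that centring 2 genes were called higher and 6 lower for iPS (5.81% and 19.8% of all genes), and 2 higher and 7 lower for ES (6.25% and 16.6% of all genes). With no fold minimum 10 of 29 passed for iPS (33.2% of all genes) and 9 for ES (26.3% of all genes). Idi1 in iPS minus MEF was at 0.63 log2 and Abcg1 in ES minus MEF at 0.36 log2. The difference between iPS and ES was tested directly.

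For iPS minus ES, 0 of 29 genes were called by limma, beside 0.0% of all genes. At an unadjusted p under 0.05 the counts were 4 of 29 genes (13.8%) and 15.4% of all genes, and robust moderation also called 0. Over all roles 10 of 29 genes lay above ES, beside 40.8% of all genes. Of the enzymes of synthesis 16 of 17 lay below ES on the mean of the lines (median -0.14 log2), beside an all-gene median of -0.06 log2. By line, 16 of 17 were below ES on iPS 178B5 and 11 of 17 on iPS 492B4, while 42.4% and 40.8% of all genes lay above 0. With equal array medians the number of enzymes below ES on the mean was 13 of 17, with 47.5% of all genes above 0. By line it was then 16 of 17 on iPS 178B5 and 9 of 17 on iPS 492B4. With reference gene centring it was 16 of 17 on the mean, with only 27.5% of all genes above 0. By line that centring gave 17 of 17 on iPS 178B5 and 13 of 17 on iPS 492B4. These counts were made after the values were seen, and the enzymes share the same 3 arrays.
Idi1 was below ES on both iPS lines, at -0.74 and -0.70 log2 (mean -0.72 log2, 95% interval -1.11 to -0.34, limma adjusted p = 0.182). Abcg1 was above ES on both iPS lines, with 0.83 log2 for 178B5 and 1.49 log2 for 492B4 (mean 1.16 log2, 95% interval 0.29 to 2.03, limma adjusted p = 0.257). These were the only members with both iPS lines at least 0.5 log2 to the same side of ES. For Dhcr7 the mean difference was 0.20 log2 with an interval from -0.31 to 0.71, and for Npc2 it was -0.044 log2 with an interval from -0.54 to 0.45.
Markers of other cells also differed in value between the iPS lines and ES, in a comparison in which 0 of all 19938 genes were called. Of 9 primitive and visceral endoderm markers 7 lay above ES on the iPS mean (median 1.28 log2), and all 8 fibroblast markers lay below it (median -1.94 log2). The endoderm markers Gata6 and Cubn were 3.08 and 3.12 log2 above ES. No levels are given in the table, so it does not show which markers are near 0, and their part in the differences was not tested.

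The 2 iPS lines were compared by value, without a test, since each has 1 array. Of 29 genes 21 (72.4%) were higher on iPS 492B4 than on iPS 178B5, beside 46.8% of all genes, and the median was 0.20 log2, beside -0.02 log2 over all genes. The number was 22 with equal array medians (49% of all genes) and 21 with reference gene centring (39.5% of all genes). At least 0.5 log2 higher on iPS 492B4 were 5 of 29 genes (3.66% of all genes), and at least 0.5 log2 lower were 0 (3.3% of all genes). The 5 genes were Abcg1 (0.65 log2), Msmo1 (0.59 log2), Insig1 (0.52 log2), Lss (0.52 log2) and Mvd (0.51 log2). Srebf1 and Srebf2 were 0.43 and 0.34 log2 higher on iPS 492B4. Of the 17 enzymes of synthesis 13 were higher on iPS 492B4 (median 0.17 log2), with a range from -0.28 log2 (Ebp) to 0.59 log2 (Msmo1). Ebp (-0.28 log2), Npc1 (-0.24 log2) and Nr1h3 (-0.22 log2) lay farthest in the other direction. The genes share 2 arrays and are not replicates, so the count describes this pair of arrays.

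**Figure D3:**
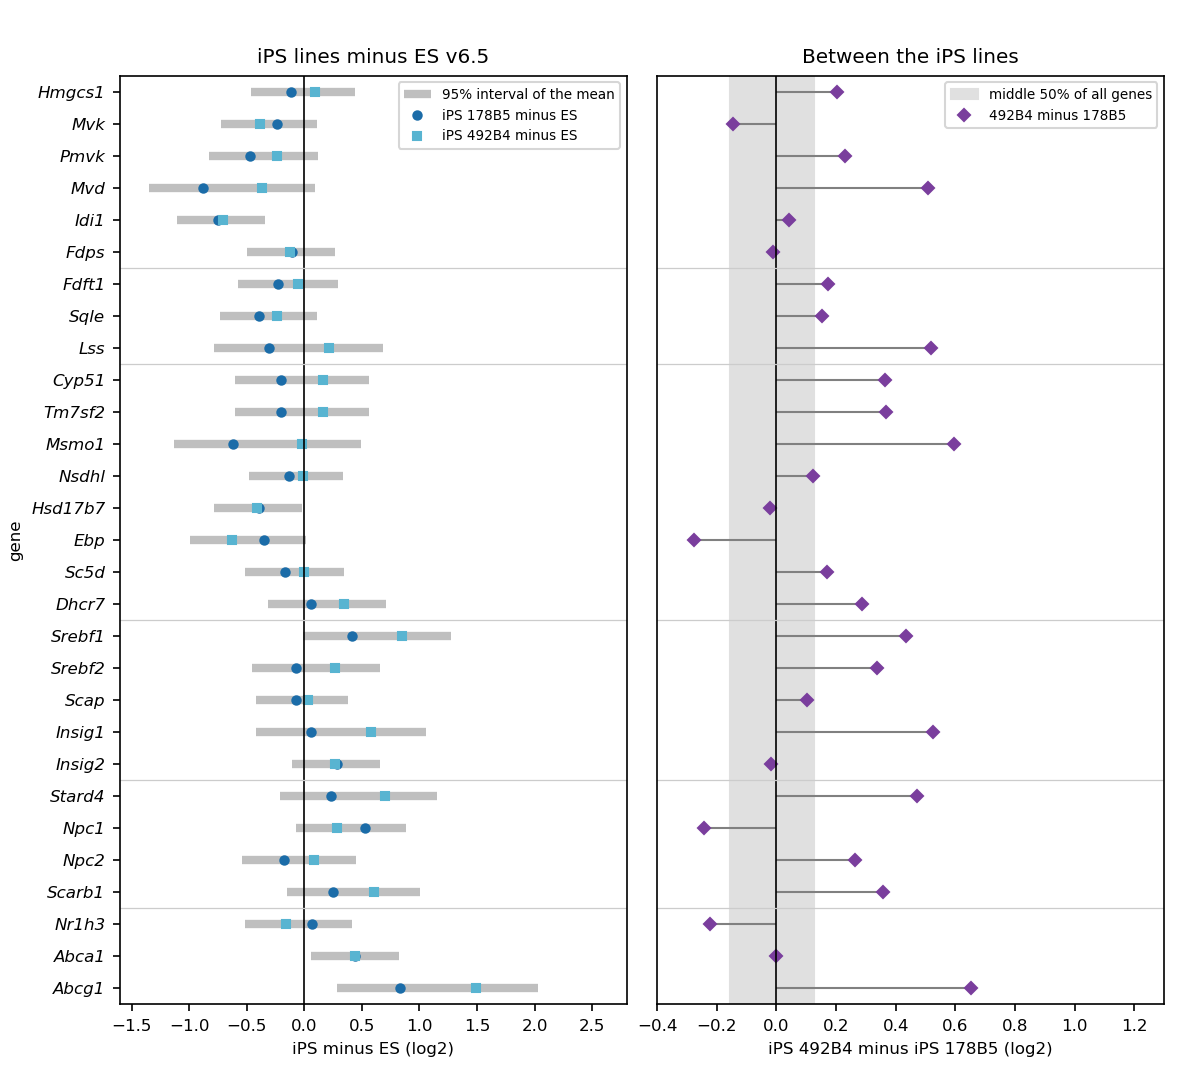
Left, difference of each iPS line from ES v6.5 (log2) for the 29 genes, with circles for iPS 178B5, squares for iPS 492B4 and a grey bar for the 95% interval of their mean; Idi1 lies to the left and Abcg1 to the right on both lines. Right, iPS 492B4 minus iPS 178B5 (log2), with the band that holds the middle 50% of all genes; 21 of the 29 points lie above 0.

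Other genes of the pathway were read from a list of 54, of which 47 were measured. In pluripotent lines minus MEF 2 were called higher and 6 lower (17%, beside 17.6% of all genes), with a median of -0.10 log2. Lbr, a lamina protein that is also a sterol reductase for the step shared with Tm7sf2, stood at 0.29 on iPS 178B5, 0.21 on iPS 492B4 and -0.21 on ES, against -2.20 on MEF. It rose by 2.30 ± 0.27 log2 (SD, n = 3; limma adjusted p = 0.00904), while Tm7sf2 was at 0.38 log2 and not called. Its call held in all 8 alternative fits.
On the oxysterol side, Ch25h and Rxra fell. Ch25h, which makes an oxysterol that holds back SREBP processing and activates LXR, stood at -0.21 on iPS 178B5, -0.64 on iPS 492B4 and 0.21 on ES, against 2.94 on MEF. Its difference was -3.15 ± 0.43 log2 (SD, n = 3; limma adjusted p = 0.00983). Rxra, the dimer partner of LXR and other nuclear receptors, differed by -1.64 ± 0.13 log2 (SD, n = 3; limma adjusted p = 0.00843).
The receptors Lrp1, a large scavenging receptor, at -2.98 log2 (limma adjusted p = 0.0315), and Vldlr, a lipoprotein receptor, at -1.59 log2 (0.0153), also fell. Mylip, an LXR target that marks lipoprotein receptors for degradation, fell too, at -1.43 log2 (0.0116). The ER sterol transporters went apart, with Gramd1b at 1.64 log2 (limma adjusted p = 0.0309) and Gramd1c at -1.08 log2 (0.0159). Without iPS 178B5 Lrp1 (adjusted p = 0.0750), Vldlr (0.0586), Mylip (0.0545), Gramd1b (0.0993) and Gramd1c (0.0748) were not called, nor was Lrp1 without iPS 492B4 (0.0717). Of 13 fatty acid synthesis genes (median 0.18 log2, range -0.76 to 0.88 log2) 0 were called by limma, with 4 at an unadjusted p under 0.05. Of 8 genes of the mevalonate branches (median 0.070 log2, range -0.54 to 0.52 log2) 0 were called, with 1 at an unadjusted p under 0.05. Over all genes 17.6% were called, and 37.8% had an unadjusted p under 0.05. Robust moderation also called 0 in both lists.

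**Figure D4:**
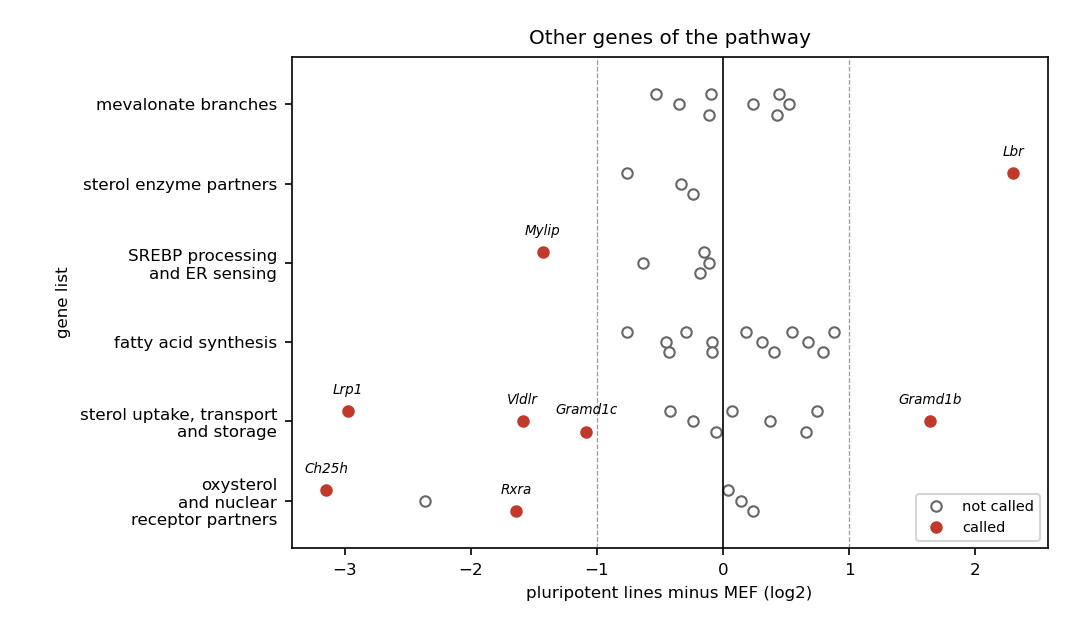
Difference from MEF (log2, mean of the 3 pluripotent lines) of the 47 other pathway genes measured, by list; filled points are called and named, open points are not called. Ch25h (-3.15) and Lrp1 (-2.98) lie farthest to the left and Lbr (2.30) farthest to the right, and no gene of fatty acid synthesis or the mevalonate branches lies beyond 1 log2.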

How the data were processed

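RNA from 4 mouse cell samples was hybridised to Affymetrix arrays, 1 per sample. The deposited table gives log-scale values of 28853 probe sets, made with GCRMA per the submitters' processing notes; for its version, the genome build and the log base, the sources used here give nothing. The deposited values were taken as log2, and in the table the median over the 4 arrays was 0 within 1e-06 in all rows, so the values are differences between arrays. The number of arrays limits the precision.

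Probe sets with 1 gene symbol in the platform annotation (21789; 1621 had several and 5443 none) were averaged per gene, giving 19938 genes. Of these probe sets 21698 matched GRCm38.p6 gene IDs, with 0 symbols changed. limma 3.58.1 in R 4.3.3 was fitted over all genes, with eBayes and with p-values adjusted by Benjamini-Hochberg. The eBayes step draws the spread of each gene towards a value shared by all genes. The fit was also run on simulated data in which the MEF array varied as the lines do, so that run could not test this assumption. A gene was called at adjusted p under 0.05 and at least 1 log2. Leaving out 1 line, other scalings, other probe set rules, robust moderation and no fold minimum were tried. With centred values no filter on dim probes could be set, and no scan date or batch was given.

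The members and lists were chosen with earlier results of these data known. Values are printed for members called against MEF, those at least 1 log2 from MEF on any line, and the genes of SREBP regulation. They are also printed for members at least 0.5 log2 from ES on both iPS lines and for the 4 largest differences between the iPS lines. The 8 largest called genes of the other list are printed too. Further members were named, after their values were seen, to complete their group. The SREBP motif rule gave the Hmgcs1 promoter only. Of the 12 reference genes 9 were measured.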

Additional observations from a re-analysis of the deposited data

Results flagged for a closer look

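In 2 genes both iPS lines lay to one side of MEF and ES to the other. Sqle differed from MEF by -0.25 log2 on iPS 178B5, -0.09 log2 on iPS 492B4 and 0.14 log2 on ES, a gap of -0.31 log2 between the iPS mean and ES (limma adjusted p = 0.417). Scarb1 differed from MEF by 0.22 log2 on iPS 178B5, 0.58 log2 on iPS 492B4 and -0.03 log2 on ES, a gap of 0.43 log2 (limma adjusted p = 0.417). Neither gap was called.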

How the results depend on the processing

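For pluripotent lines minus MEF, the number of the 29 genes called was 5, and 0 to 5 when 1 line was left out. It was 8 with no fold minimum (23.8% of all genes) and 7 with reference gene centring. For iPS minus MEF it was 8 with reference gene centring and 10 with no fold minimum, and for ES minus MEF 9 under each. For iPS minus ES it was 0 under every setting run, while over all genes 44 were called with equal array medians and 142 with reference gene centring. Over all genes, reference gene centring gave 1060 higher and 3545 lower calls in pluripotent lines minus MEF, against 1576 and 1936, 1159 and 3955 against 1981 and 2235 in iPS minus MEF, and 1246 and 3317 against 1823 and 2167 in ES minus MEF. Small differences changed sign. Msmo1 (0.061 log2) was at -0.33 log2 with reference gene centring, and between -0.046 log2 (without ES) and 0.26 log2 (without iPS 178B5) when a line was left out, with -0.035 log2 without iPS 492B4. Srebf1 (-0.040 log2) was at 0.034 log2 under equal array medians, and when a line was left out it ran from -0.25 log2 (iPS 492B4 left out) to 0.17 log2 (ES left out). Srebf2 was at -0.13 log2 with reference gene centring. Probe set rules and robust moderation changed no call among the differences followed, except that Idi1, with 2 probe sets, was not in the fit of genes with 1 probe set. No paired analysis was possible because the groups share fewer than 2 replicate numbers, and a line could not be left out of the fit with 3 groups without losing its only residual degree of freedom (iPS) or the comparison itself (ES). Causes were not tested.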
